A study of Mus musculus with 4 samples.

Results

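The genes described here were 9 genes of the red blood cell lineage: the globins Hba-a1 and Hbb-b1, the haem synthesis enzyme Alas2, the transferrin receptor Tfrc, the membrane proteins Slc4a1 and Epb42, the transcription factors Klf1 and Gata1, and the erythropoietin receptor Epor. They were chosen by name, through the transcript that each array probe targets, and made up 9 of the 25694 genes tested. The arrays carried 11 probes for them, 3 of which targeted Tfrc, and each gene was represented by its brightest probe.

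Red blood cells arise in the bone marrow, where erythropoietin binds its receptor on erythroid precursors and keeps them alive. The transcription factors GATA1 and KLF1 then switch on the globins, the haem pathway and the proteins of the red cell membrane. The precursors take up iron through the transferrin receptor, and the reticulocytes that leave the marrow still carry globin mRNA, so both marrow and blood in a tissue sample can give these transcripts.

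RNA was taken from the temporal bone area including the middle ear of male BALB/c mice aged 6 to 10 weeks, and 9 mice were used in the study. The exposed mice (DEP_ear) inhaled diesel exhaust particles (DEPs) on 5 days, 1 h a day, and were killed on day 14, and the controls (CON_ear) were labelled only as control ears. Each of 4 two-colour arrays compared 1 DEP extract in the red dye Cy5 with 1 control extract in the green dye Cy3. The number of mice behind an extract is not given in the sources used here, and beyond a note of biological replication nothing says that the extracts came from separate animals, so p-values measure the spread between these 4 arrays, which may be partly technical. The dyes were never swapped, so dye preference and exposure cannot be told apart. The sample labels list both treatments under Cy5, and the source names of the 2 channels were followed here. In such bulk extracts fewer erythroid cells and less RNA per cell cannot be told apart.

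Values are log2 ratios of DEP over control, so a ratio of 1 is a 2-fold higher signal in DEP and a ratio below 0 a lower one. Read from the source names, the ratios run opposite to the study's direction for nearly all genes that it lists as raised by DEPs, and the genes that it lists as lowered were not checked. Of 25 such genes with a ratio here, 24 had a mean below 0. With the channels exchanged every sign below would turn, and the highest and lowest means would change places. The arrays differed from each other, with Pearson's r across probes between -0.22 and 0.61, and array 1 had the widest ratios, with an SD across probes of 0.97 against 0.62 to 0.68 elsewhere. Of 39429 probes, between 59.3% and 69.0% were well above background, depending on the array and channel. On every array both channels of all 11 erythroid probes were well above background, here called fully measured, and no spot was saturated. The number of arrays limits the precision of every mean below.

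Promoter sequences are shown for 4 of the genes, since most members shared a sign within each array, to let the letters read by the erythroid factors be compared between genes. They are the 250 bases before the RefSeq gene start in the GRCm38.p6 assembly, 5′ to 3′ on the gene's strand, and RefSeq windows were matched for 7 of the 9 genes (8 windows; not Slc4a1 and Hbb-b1). Capitals mark either of 2 motifs on either strand. The first is a GATA site, searched as AGATAA and AGATAG, or with T in first place as TGATAA and TGATAG, and the second is the CACCC-type box CCNCNCCC, the kind of site that KLF1 reads. No GATA string overlaps a box in these windows, and boxes that overlap each other run together as 1 stretch. The windows were Hba-a1 at chr11:32283422-32283671 on the plus strand, Alas2 at chrX:150547167-150547416 on the plus strand, Epor at chr9:21963577-21963826 on the minus strand and Tfrc at chr16:32608646-32608895 on the plus strand.
Hba-a1: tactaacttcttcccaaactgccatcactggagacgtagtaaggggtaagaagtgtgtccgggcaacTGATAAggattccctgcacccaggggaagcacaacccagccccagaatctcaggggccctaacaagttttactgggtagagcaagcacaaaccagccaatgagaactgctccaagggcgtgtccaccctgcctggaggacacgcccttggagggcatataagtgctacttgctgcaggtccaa
Alas2: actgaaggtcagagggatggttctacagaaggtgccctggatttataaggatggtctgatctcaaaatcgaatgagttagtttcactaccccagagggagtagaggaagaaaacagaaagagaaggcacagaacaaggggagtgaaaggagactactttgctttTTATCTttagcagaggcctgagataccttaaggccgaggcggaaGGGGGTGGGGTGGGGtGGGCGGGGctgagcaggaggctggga
Epor: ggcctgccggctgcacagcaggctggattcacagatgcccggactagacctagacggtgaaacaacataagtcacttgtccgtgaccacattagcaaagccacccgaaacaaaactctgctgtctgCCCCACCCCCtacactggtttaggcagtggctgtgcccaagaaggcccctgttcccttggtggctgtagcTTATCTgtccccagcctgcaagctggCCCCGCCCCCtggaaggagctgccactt
Tfrc: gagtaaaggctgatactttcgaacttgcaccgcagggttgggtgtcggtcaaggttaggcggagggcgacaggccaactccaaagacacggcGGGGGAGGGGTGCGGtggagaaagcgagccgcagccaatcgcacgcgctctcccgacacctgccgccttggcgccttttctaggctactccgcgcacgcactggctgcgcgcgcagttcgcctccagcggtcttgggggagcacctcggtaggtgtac
A GATA string was found in 5 of the 7 genes, against 26.5% of 32851 mouse windows of the same length. In Hba-a1 it began 183 bases before the start, in Alas2 86 bases and in Epor 54 bases before it, and TTATCT in Alas2 and Epor is the same motif on the other strand. The CACCC-type box was found in 4 of the 7 genes, against 45.9% of all windows. Alas2 and Epor held both motifs, as did 8.19% of all windows, whereas Hba-a1 held the GATA string alone and Tfrc the box alone. These matches describe letters only.

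None of the 9 erythroid genes differed between DEP and control ears beyond the spread of the arrays. By limma's moderated test with Benjamini-Hochberg adjustment over all probes, 0 of 9 had an adjusted p under 0.05, as was the case for all 25694 genes (0.0%), and the smallest adjusted p among the 9 was 0.381 (0.0922 over all probes). An unadjusted p under 0.05 was reached by 0 of 9, against 18.7% of all genes, and a mean ratio past 2-fold by 0 of 9, against 6.75% of all genes. The mean was above 0 for 5 genes and below 0 for 4, and the median of the 9 means was 0.07, against 0.03 over all genes. An exact sign-flip permutation test of 4 ratios cannot go below a two-sided p of about 0.13, so it could not have passed 0.05 for any gene. The plot of ratios by gene shows that the arrays disagreed in sign for every one of the 9.

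**Figure D1:**
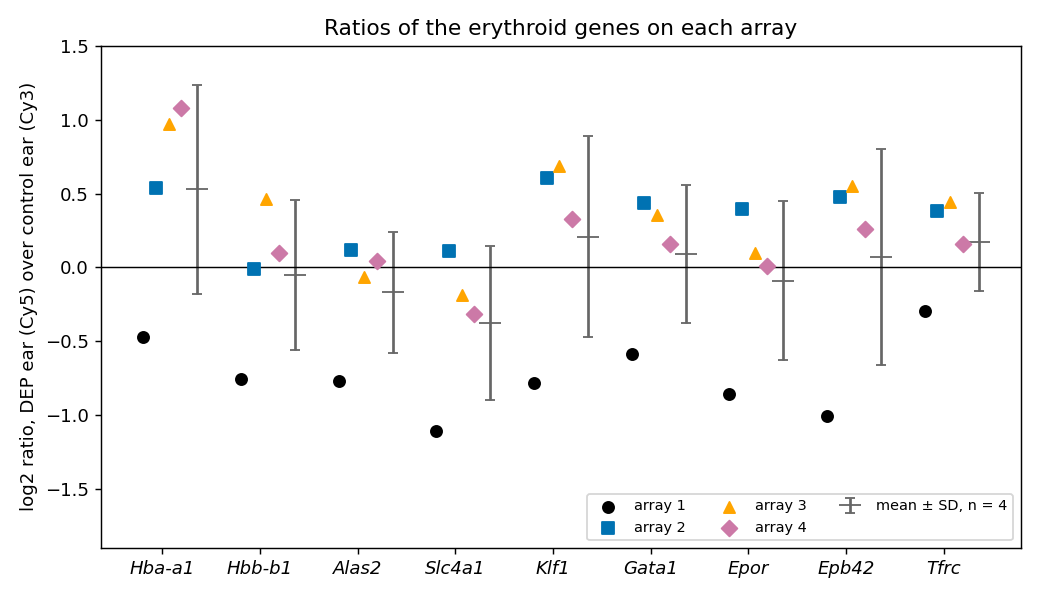
Log2 ratio of DEP (Cy5) over control (Cy3) of the 9 erythroid genes (x axis), with 1 symbol per array and the mean ± SD over 4 arrays beside them. Array 1 gave the lowest ratio for all 9 genes, between -1.11 and -0.30, and the SD bar of every gene crosses 0.

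Hba-a1, an alpha-globin of adult haemoglobin, had the largest mean of the 9 genes. Its processed signal in the DEP channel was 205786, 190562, 189080 and 234909 on arrays 1 to 4, and in the control channel it was 285773, 131335, 96626 and 111175. On this scale, set within each array, the control signal of array 1 exceeded those of the other 3 arrays. The log2 ratios were -0.47, 0.54, 0.97 and 1.08, with a mean of 0.53 ± 0.71 (SD, n = 4; SE 0.29; 95% interval -0.22 to 1.28; limma adjusted p = 0.381). DEP was therefore higher on 3 of 4 arrays and lower on array 1. Before dye correction the brightest Hba-a1 spot read 316795 in Cy5, below the scanner's saturation value of 778060. The gene's uncorrected Cy5 signal ranged from 250792 to 316795, and was the highest of all probes on arrays 2, 3 and 4. Its uncorrected Cy3 signal ranged from 50195 to 135118. Whether the ratios were compressed at the top of the range was not tested.

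Hbb-b1, the major beta-globin of the BALB/c haplotype, gave DEP signals of 49014, 53796, 37839 and 43319 and control signals of 82668, 54277, 27433 and 40531 on arrays 1 to 4. The control channel spanned a wider range than the DEP channel, with array 1 highest and array 3 lowest. Its ratios of -0.75, -0.01, 0.46 and 0.10 averaged -0.05 ± 0.51 (SD, n = 4; SE 0.22; limma adjusted p = 0.911). The direction of that mean is not stable, since it was 0.18 without array 1.

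The other adult globins on the array were lower on array 1 too. Hba-a2, the duplicate alpha-globin gene, had ratios of -0.35, 0.42, 0.18 and 0.54 (mean 0.20 ± 0.39, SD, n = 4). Hbb-bt, a beta-globin of the reference strain's haplotype, had -0.83, 0.21, 0.37 and 0.31 (mean 0.02 ± 0.56). Hbb-b2, the minor beta-globin of the BALB/c haplotype, had -0.99, 0.14, 0.43 and 0.37 (mean -0.02 ± 0.66), and was named after its values were seen. All 3 were lower in DEP on array 1 and higher on the other arrays. With normexp and median centring, a setting described later, the means were 1.40 for Hba-a2, 1.18 for Hbb-bt and 1.03 for Hbb-b2 (limma adjusted p = 0.0197, 0.0264 and 0.0435), where 17.7% of all genes passed in this direction. With normexp and loess they were 0.44, 0.24 and 0.12 (limma adjusted p = 0.309, 0.606 and 0.824). The alpha-globin copies are nearly the same gene. The windows before Hba-a1 and Hba-a2 were identical over 247 of 247 bases when shifted by 3. Their probes, like those of the beta-globins, may therefore read each other's transcripts. The mice were BALB/c, so the probe of Hbb-bt, a gene of the other haplotype, cannot be taken as a separate gene's reading.

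**Figure D2:**
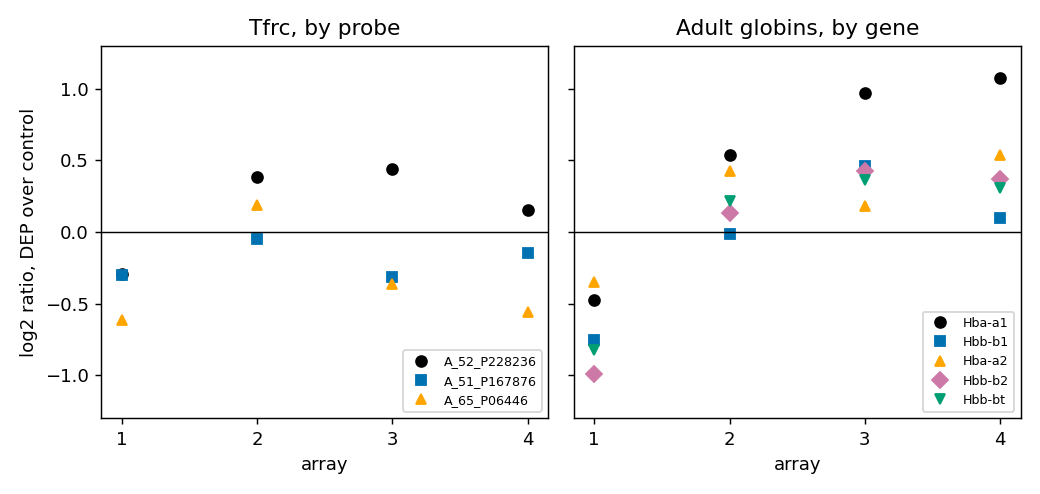
Log2 ratio of DEP over control on each array (x axis) for the 3 Tfrc probes on the left and probes named for 5 adult globins on the right. The Tfrc probes lie on both sides of 0 on arrays 2, 3 and 4, and all 5 globin probes are below 0 on array 1.

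Alas2, the erythroid enzyme that starts haem synthesis, had DEP signals of 21813, 31348, 18985 and 24909 and control signals of 37276, 28949, 19901 and 24181 on arrays 1 to 4. Except on array 1, both channels were close to each other. The ratios were -0.77, 0.11, -0.07 and 0.04, and their mean was -0.17 ± 0.41 (SD, n = 4; SE 0.19; limma adjusted p = 0.637). Without array 1 the mean was 0.03.

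Tfrc, which brings transferrin-bound iron into erythroblasts and into dividing cells in general, was measured by 3 probes that did not give 1 answer. Its brightest probe, A_52_P228236, was spotted 10 times per array and gave ratios of -0.30, 0.38, 0.44 and 0.16, with a mean of 0.17 ± 0.33 (SD, n = 4; SE 0.16; limma adjusted p = 0.590). The SD between its spots was 0.033 to 0.041 within an array (9 spots were used on array 2), far below the spread between arrays. The signals were 2078, 2160, 1572 and 1701 in DEP and 2550, 1658, 1157 and 1526 in control. DEP was the lower channel on array 1 alone.

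The probe A_65_P06446 had ratios of -0.61, 0.19, -0.36 and -0.56 (mean -0.34 ± 0.36, SD, n = 4; limma adjusted p = 0.354). The dimmest probe, A_51_P167876, had ratios of -0.30, -0.05, -0.31 and -0.15 (mean -0.20 ± 0.13, SD, n = 4; limma adjusted p = 0.370). Both were lower in DEP on arrays 3 and 4, where the brightest probe was higher. With the probes averaged, the mean of Tfrc turned to -0.12, so no direction can be given for this gene. The dimmest probe was the only 1 of the 11 erythroid probes with the same sign on all 4 arrays, and its processed signals lay between 45.2 and 83.2.

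Slc4a1, the band 3 anion exchanger and main integral protein of the red cell membrane, had the lowest mean of the 9 genes. It gave DEP signals of 15372, 22082, 15445 and 17819 and control signals of 33120, 20442, 17631 and 22237 on arrays 1 to 4, so that DEP was lower on 3 of 4 arrays. The ratios were -1.11, 0.11, -0.19 and -0.32, with a mean of -0.38 ± 0.52 (SD, n = 4; SE 0.22; 95% interval -0.95 to 0.20; limma adjusted p = 0.408). Array 1 carried much of that mean, which was -0.13 without it.

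Epb42 encodes a membrane skeleton protein that binds band 3. Its DEP signals were 411, 692, 462 and 538, and its control signals 828, 497, 315 and 449. Array 1 again ran against the other 3, with ratios of -1.01, 0.48, 0.55 and 0.26 that averaged 0.07 ± 0.73 (SD, n = 4; SE 0.30; limma adjusted p = 0.911). These 2 partners at the membrane thus differed in sign on arrays 3 and 4.

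Klf1, the factor that binds the CACCC box of the adult beta-globin promoter, had DEP signals of 2378, 3700, 2414 and 2980 on arrays 1 to 4. The control signals were 4096, 2432, 1498 and 2380. DEP was higher on all arrays but the first, with ratios of -0.78, 0.61, 0.69 and 0.32 and a mean of 0.21 ± 0.68 (SD, n = 4; SE 0.28; limma adjusted p = 0.703). Gata1, the master factor of erythroid and megakaryocyte differentiation, had the same order of signs. Its signals were 3605, 5178, 3504 and 4470 in DEP and 5410, 3822, 2745 and 3998 in control, and its ratios were -0.59, 0.44, 0.35 and 0.16 (mean 0.09 ± 0.47, SD, n = 4; SE 0.21; limma adjusted p = 0.827).

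Epor, the receptor that passes the erythropoietin signal on, had DEP signals of 2095, 2908, 2086 and 2523 and control signals of 3803, 2211, 1955 and 2511 on arrays 1 to 4. The channels were nearly equal on arrays 3 and 4. The ratios were -0.86, 0.40, 0.09 and 0.01, and the mean was -0.09 ± 0.54 (SD, n = 4; SE 0.23; limma adjusted p = 0.847). Its ligand gene Epo, which is made mainly in the kidney, stayed below the scanner's limit for a signal well above background on all 4 arrays, in Cy5 and in Cy3, so no fold is given for it.

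**Figure D3:**
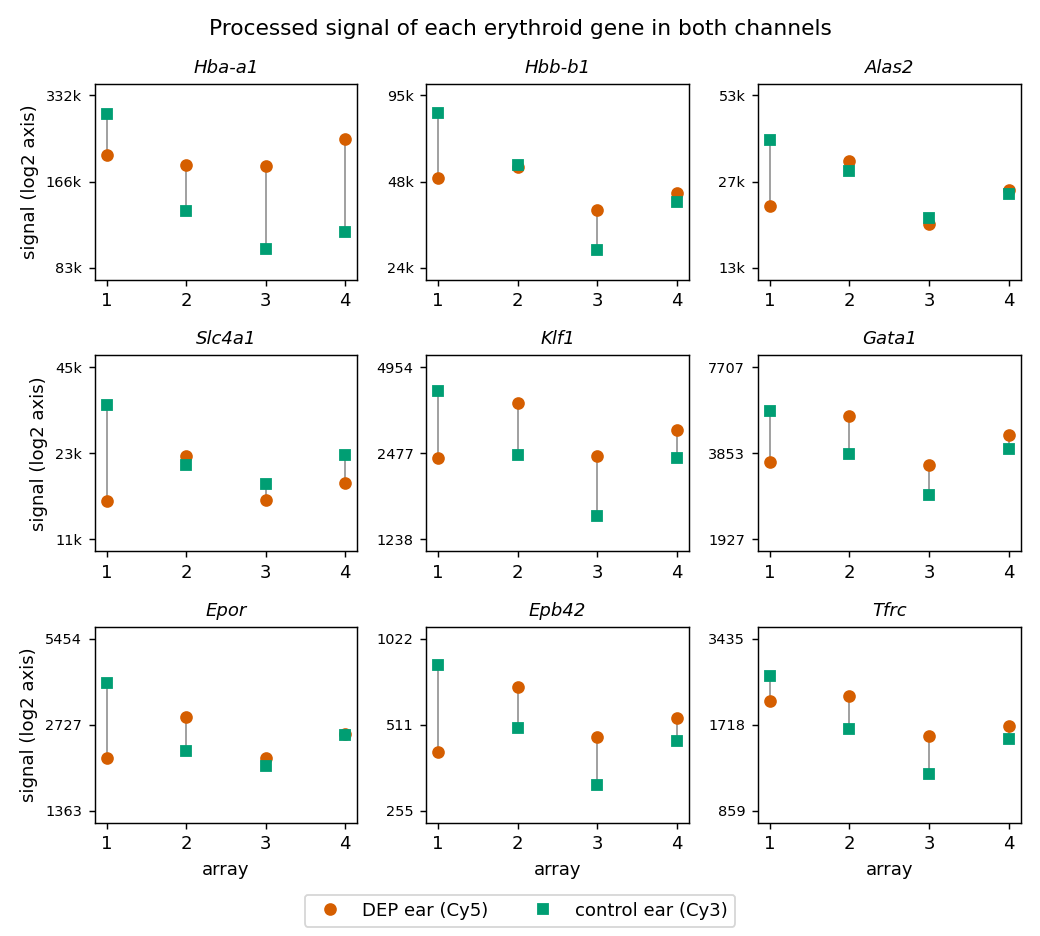
Processed signal (log2 axis, arbitrary units) of each erythroid gene in the DEP channel (circles) and the control channel (squares) on arrays 1 to 4, with the 2 channels of an array joined. On array 1 the control square lies above the DEP circle in all 9 panels.

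Most of the 9 genes shared a sign within an array, while no gene kept 1 sign across the arrays. On array 1 all 9 were lower in DEP, with a median ratio of -0.77, where 51.6% of all genes were lower and the median of all genes was -0.02. On array 2, 8 of 9 were higher in DEP, where 41.6% of all genes were lower, with a median of 0.40 against 0.08 for all genes. Array 3 had 7 of 9 higher, where 46.8% of all genes were lower (medians 0.44 and 0.03). Array 4 had 8 of 9 higher, where 45.9% of all genes were lower (medians 0.16 and 0.04). Array 1 gave the lowest of the 4 ratios for 9 of 9 genes, against 37.4% of all genes. Lower on array 1 and higher on the other 3 were 6 of the 9 (Hba-a1, Klf1, Gata1, Epor, Epb42 and Tfrc), against 10.6% of all genes and 11.1% of the fully measured ones. This pattern was chosen after the values were seen, and it has no test.

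Leaving out array 1, 8 of 9 means were above 0 (all but that of Slc4a1), and their median was 0.32, against 0.03 over all genes. An unadjusted p under 0.05 in limma's test was then reached by 3 of 9, all higher in DEP, against 10.9% of all genes. These were Hba-a1 with a mean of 0.86 (SE 0.16), Klf1 with 0.54 (SE 0.13) and Epb42 with 0.43 (SE 0.12), and either direction together held 17.7% of all genes. After adjustment 0 of 9 passed, with limma adjusted p = 0.198 for Hba-a1, 0.222 for Klf1 and 0.242 for Epb42. The labels give no ground for leaving that array out.

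The treatment of the background and the dyes also bore on the outcome. When the raw signals were corrected with normexp and each array was centred on its median ratio, with no correction for intensity, the means of 9 of 9 genes were above 0, as were those of 61.1% of all genes. Hba-a1 then had a mean of 1.65 on the log2 scale (limma adjusted p = 0.0232) and Hbb-b1 one of 0.78 (limma adjusted p = 0.0470), so that 2 of 9 passed, against 17.7% of all genes that passed in this direction. An unadjusted p under 0.05 was reached there by 5 of 9, against 41.7% of all genes, and a 2-fold mean by 1 of 9, against 2.6%. With the same background correction and a loess fit, which follows the dye bias along the intensity, the ratios of Hba-a1 were -0.38, 0.78, 1.07 and 1.24 and 0 of 9 passed.

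Hba-a1 and Slc4a1 differed most from the common course. Set against the median of the 9 genes on the same array, Hba-a1 was higher on 4 of 4 arrays, by 0.30, 0.14, 0.53 and 0.92, and Slc4a1 was lower on 4 of 4, by values of -0.33, -0.28, -0.63 and -0.48. The mean difference was 0.47 ± 0.34 for Hba-a1 and -0.43 ± 0.16 for Slc4a1 (SD, n = 4). Both genes were singled out after their values were seen, and the median contains them, so this is a description.

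Which extract stood apart on array 1 depended on how the arrays were scaled against each other. With the signals scaled within each array, the control channel of array 1 was the highest of the 4 control channels for 9 of 9 genes, and that of array 3 the lowest for 9 of 9. After quantile scaling of mean intensities between arrays, the DEP channel of array 1 was the lowest of the 4 DEP channels for 9 of 9 genes, and the control channel of array 1 the highest for 5 of 9. The control channel of array 3 remained the lowest for 8 of 9.

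Other genes of the red cell programme were read from 7 further lists with 76 genes, of which 74 were tested and 67 were fully measured. An unadjusted p under 0.05 in limma's test was reached by 6 of the 74 (3 higher and 3 lower in DEP), against 18.7% of all genes, and 0 passed after adjustment. Their median was 0.03, near that of all genes. Among the 6, Cpox and Dmtn were fully measured, and Hbb-y, Pklr, Hbb-bh2 and Epo were not and are named after their values were seen. The 2 genes with a mean past 2-fold, against 6.75% of all genes, were Hbb-bh2 and Epo, which were not well above background on any array. On array 1, 60 of the 73 with a ratio were lower in DEP, against 51.6% of all genes. On array 2, 62 of 74 were higher, where 41.6% of all genes were lower, and on array 3, 51 of 72, where 46.8% were lower. On array 4, 46 of 74 were higher, where 45.9% of all genes were lower, a share near that of all genes. Array 1 gave the lowest ratio for 55 of the 71 genes with all 4 ratios, against 37.4% of all genes.

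The genes of the red cell membrane and its skeleton had medians of -0.82, 0.32, 0.27 and 0.20 on arrays 1 to 4, and all 16 were lower in DEP on array 1, where all 16 had their lowest ratio. Sptb, the beta-spectrin of the skeleton, had ratios of -1.13, -1.04, 0.20 and -0.04 and a mean of -0.50 ± 0.68 (SD, n = 4). On array 2 it thus ran against the median of its list. Leaving out 1 array in turn its mean ranged from -0.74 to -0.29, and with normexp and median centring it was -0.13. Dmtn, the actin-bundling protein dematin, was lower on all 4 arrays, with ratios of -1.03, -0.18, -0.57 and -0.16 and a mean of -0.49 ± 0.41 (limma adjusted p = 0.265). Its unadjusted p was above 0.05 without array 1 (mean -0.30), array 2 or array 3. Rhd, a subunit of the Rh blood group complex, was lower on array 1 alone, with ratios of -0.84, 0.61, 0.60 and 0.47.

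The other haem synthesis enzymes had medians of -0.22, 0.16, 0.23 and -0.06. Cpox, the coproporphyrinogen oxidase of the pathway, was higher on all 4 arrays, with ratios of 0.11, 0.58, 0.67 and 0.16 and a mean of 0.38 ± 0.28 (SD, n = 4; limma adjusted p = 0.268), and its unadjusted p was above 0.05 without array 2, 3 or 4. Ppox, the next enzyme, had a mean of -0.20 ± 0.25. Among the genes of iron supply the medians were -0.32, 0.20, 0.04 and 0.00, with a mean of 0.19 ± 0.22 for Tfr2, the second transferrin receptor, and of -0.19 ± 0.47 for Slc25a37, the mitochondrial iron importer mitoferrin-1.

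Erythroid transcription factors and cofactors had medians of -0.37, 0.35, 0.14 and -0.05 on arrays 1 to 4. Gata2, which precedes Gata1 in early progenitors, had ratios of -0.08, 0.44, -1.19 and -0.40 with a mean of -0.31 ± 0.68 (SD, n = 4), which was -0.014 without array 3. The mean of Tal1, a partner of GATA1 on DNA, was -0.19 ± 0.49, and that of Bcl11a, the repressor of embryonic and fetal globins, 0.28 ± 0.30. The genes of erythropoietin signalling had medians of -0.29, 0.12, -0.07 and -0.05. Kit, the stem cell factor receptor of early progenitors and mast cells, had ratios of -1.14, -1.09, -0.20 and 0.25, and Cish, a feedback inhibitor that STAT5 induces, had a mean of -0.28 ± 0.42. The smallest limma adjusted p of these 5 genes was 0.358, that of Kit.

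Red cell enzymes and maturation genes had medians of -0.51, 0.35, 0.33 and 0.21. Car1, a carbonic anhydrase of red cells, had a mean of 0.32 ± 0.44 (SD, n = 4), Cat, which breaks down hydrogen peroxide in many tissues, 0.37 ± 0.36, and Prdx2, an abundant red cell peroxiredoxin, -0.27 ± 0.36, which was -0.090 without array 1. On array 1, 9 of the 13 genes tested in this list were lower in DEP, and Cat, at 0.75, was among those that were higher.

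Markers of 3 other kinds of blood and marrow cells were also low on array 1. On array 1 the medians were -0.96 for 11 megakaryocyte and platelet markers, -0.90 for 12 neutrophil and precursor markers and -0.63 for 10 B cell and precursor markers, and every gene of these lists was lower in DEP there. On arrays 2 to 4 the megakaryocyte list had medians of 0.02, 0.21 and 0.06, the neutrophil list -0.03, 0.65 and 0.29 and the B cell list 0.07, 0.63 and 0.49, so that all 3 lay near 0 on array 2, where the erythroid median was 0.40. Proliferation genes had medians of -0.45, 0.21, 0.55 and 0.02. The summed signal over arrays ranged from 365795 to 532507 in the DEP channel and from 283832 to 803096 in the control channel for the neutrophil list, and from 271387 to 333168 and from 169260 to 455524 for the 9 erythroid genes, in the same order. All 12 neutrophil and all 11 megakaryocyte markers were fully measured.

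The other marker lists followed the erythroid course in part. Of the dissected region's own markers, 9 of 9 of bone, 9 of 9 of airway-type epithelium and 6 of 9 of the inner ear were fully measured, while Slc26a5, the outer hair cell motor prestin, was not well above background. Endothelial markers had medians of -0.06, 0.12, -0.34 and -0.03, bone markers -0.55, 0.21, 0.15 and 0.63, and inner ear markers -0.31, 0.52, 0.39 and 0.00. The bone and inner ear lists, like the erythroid genes, were thus lowest on array 1. Airway-type epithelium markers had -0.23, 0.52, -0.26 and -0.44, skeletal muscle markers -0.72, -0.51, 0.75 and 0.76, and neuron markers -2.47, -1.83, -0.72 and 0.25. The cerebellum list, at -3.07, -3.60, -0.32 and 0.22, was lowest on array 2, where 8 of the 9 erythroid genes were higher in DEP. T cell markers had -0.10, 0.14, 0.25 and 0.03, and macrophage and monocyte markers -0.17, 0.11, 0.88 and 0.79. In each of these lists 5 of 8 genes were lower in DEP on array 1, where 51.6% of all genes were lower. The part of other cell types in the erythroid ratios was not tested.

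**Figure D4:**
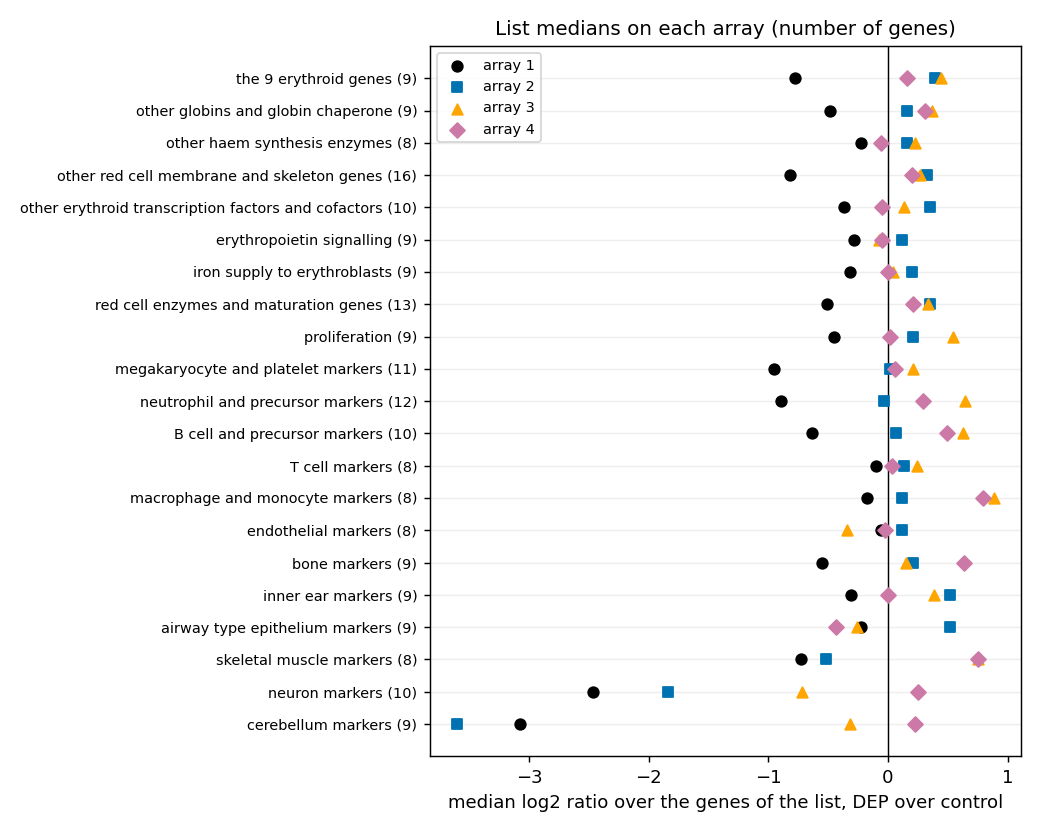
Median log2 ratio of DEP over control on each array (x axis) for the 9 erythroid genes and 20 further gene lists (y axis, with the number of genes tested). Array 1 (circles) lies lowest for the 9 erythroid genes at -0.77, and for 18 of the 21 lists in all, the exceptions being the endothelial, airway-type epithelium and cerebellum lists, while the neuron and cerebellum lists reach below -1 on arrays 1 and 2.

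The 5 genes outside the 9 whose ratios lay nearest to the course of the erythroid median were Gca, Birc5, Trim10, Rrm2 and Odc1. Likeness was the root mean square difference over 4 arrays among 18342 fully measured genes, and it was 0.0642 for Gca, a calcium-binding protein of granulocytes. Birc5, the mitotic protein survivin, came next with 0.0663, followed by the erythroid ubiquitin ligase Trim10 with 0.0686. Rrm2, a ribonucleotide reductase subunit of dividing cells, had 0.0691, and Odc1, the first enzyme of polyamine synthesis, 0.0784. Of the 9 erythroid genes Gata1 lay closest to their median, with 0.106, and Hba-a1 farthest, with 0.556. With 4 arrays many genes can share a course, and the likeness is a description.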

How the data were processed

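The authors scanned 4 two-colour Agilent mouse arrays (1 slide, 1 scan) and quantified them with Feature Extraction 10.10.1.1. The deposited intensity values are background-subtracted and corrected for the dyes within each array, and the deposited log10 ratio sets Cy5 over Cy3. The authors' value table holds the same log10 ratios, within 0.005, and was an alternative. Here ratios were converted to log2, control spots, non-uniform or outlier spots (164 to 274 per array) and spots with no ratio (6179 to 8558 of 43020) were left out, spots of a probe were averaged, and probes with ratios on at least 3 arrays were kept (31577 of 39429).

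Probes were named through the transcript accession they target and a RefSeq table (27655 probes), and a probe with no symbol counted under its own accession. Ratios were tested against 0, two-sided, with limma 3.58.1 in R 4.3.3 (prior df 1.98) and Benjamini-Hochberg adjustment over all probes. Tested on simulated data, the fit called 77 of 31577 probes, 5 of them falsely. It recovered 16 of 100 probes changed by 1 and 56 of 100 changed by 2 on the log2 scale. The simulated noise was drawn independently for each probe and array, without a shared dye or array effect. These counts therefore describe the fit and not its error rate in these data. Tables and figures used Python 3.11.15 with numpy 2.4.6, matplotlib 3.10.9 and pandas 2.3.3.

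The 9 genes, the further gene lists and the alternatives were chosen with earlier results of these data known. From each further erythroid list, genes were named among the 4 with the largest absolute mean ratio and with both channels well above background on every array. Epo and the 5 genes nearest to the members' median were named as well. The DEP concentration is not printed, as the methods give differing values. Hbb-bs and Ahsp had no matched probe. No column of values was left without a sample.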

Additional observations from a re-analysis of the deposited data

Results flagged for a closer look

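Among the genes examined, array 1 lay farther from the other 3 arrays than 4 samples allow at the 95% level for 3 erythroid genes. Not every gene of the erythroid lists was examined in this way. These were Hbb-bt, with a log2 ratio of -0.83 on array 1, Rhd with -0.84 and Prdx2 with -0.80. The same held for the array 1 medians of the red cell membrane and skeleton genes (-0.82), the red cell enzymes and maturation genes (-0.51) and the megakaryocyte and platelet markers (-0.96). Of 51 genes, probes and list medians examined in this way 6 stood out, all on array 1, where chance gives about 1 in 20 independent values. The 51 share the same 4 arrays and the list medians hold some of the genes, so their number is no measure of an excess over chance. None of the 9 erythroid genes was among them.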

How the results depend on the processing

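Of 712 means and medians recomputed under the alternatives, 56 changed sign. An adjusted p under 0.05 was newly reached in 9 cases, all with normexp and median centring. No case could be lost, since no gene passed in the main fit. Normexp with median centring moved most: 1 of the 9 erythroid genes was past 2-fold (2.6% of all genes), 5 had an unadjusted p under 0.05 (41.7%), 2 an adjusted one, and 9 had a mean above 0 (61.1%). The median of the 9 means was 0.53 there, against 0.07, and that of all genes 0.13, against 0.03. Besides Hba-a1, Hbb-b1 and Hbb-b2, the genes that newly passed were Hba-a2 (1.40), Hbb-bt (1.18), Cpox (0.79), Cat (0.77), Bcl11a (0.60) and Tfr2 (0.39). Under it the means turned to 0.78 for Hbb-b1, 0.53 for Alas2, 0.23 for Slc4a1, 0.33 for Epor, 0.07 for Ppox, 0.23 for Tal1, 0.013 for Cish, 0.52 for Slc25a37, 0.38 for Prdx2 and 1.03 for Hbb-b2. Normexp with loess turned Hbb-b1 to 0.0021 and Hbb-b2 to 0.12, and averaging probes turned Tfrc to -0.12 and the median of the 9 to -0.05. Averaging probes also moved Slc25a37 from -0.19 to -0.37. Leaving out 1 array in turn, 0 to 3 of the 9 genes had an unadjusted p under 0.05 and 3 to 8 had a mean above 0, with 3 without array 2 and 8 without array 1, and their median ranged from -0.090 to 0.32. The means then ranged from -0.22 to 0.18 for Hbb-b1, -0.27 to 0.030 for Alas2, -0.024 to 0.32 for Gata1, -0.25 to 0.17 for Epor, -0.090 to 0.43 for Epb42, -0.10 to 0.30 for Hbb-bt, -0.16 to 0.31 for Hbb-b2, -0.38 to 0.017 for Tal1 and -0.36 to 0.015 for Slc25a37. With no change of sign they ranged from 0.34 to 0.86 for Hba-a1, 0.049 to 0.54 for Klf1, 0.081 to 0.33 for Tfrc, -0.54 to -0.13 for Slc4a1 and 0.087 to 0.38 for Hba-a2. Tfr2 (0.090 to 0.25), Car1 (0.17 to 0.52), Cish (-0.48 to -0.18), Ppox (-0.31 to -0.12) and Bcl11a (0.18 to 0.37) kept their sign too. The unadjusted p of Dmtn and Cpox was above 0.05 by ordinary least squares too, and that of Dmtn with median centring. The cause was not tested.

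No spot was saturated, so leaving out saturated spots changed nothing. Each ratio already pairs the 2 extracts of an array, and there was no further replicate block to fit. With 4 arrays in 1 dye orientation, dye effects and exposure cannot be told apart, and the direction rests on the labels.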
